A study of Mus musculus with 6 samples.

Results

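The genes described here encode 5 chains of collagen IV (Col4a1, Col4a2, Col4a3, Col4a4 and Col4a5) and 5 laminin chains of basement membranes (Lama4, Lama5, Lamb1, Lamb2 and Lamc1). They were taken as a family of related chains, with earlier results of these data known, and found by symbol in GENCODE M21. All 10 of 10 were among the 15663 genes listed in the tables, and all passed the filter on low counts, so none was lost. RNA was sequenced from the RPE-choroid, which is the retinal pigment epithelium (RPE) with the vascular choroid beneath it. The control group was 3 untreated healthy mice. The subretinal fibrosis (SRF) group was 3 mice that received 4 laser burns per eye and, 10 days later, a second burn on each lesion, with RNA taken 20 days after that second burn. The labels give the strain of both groups as C57BL/6, and the study's methods describe C57BL/6J males of 8 to 10 weeks. The sources used here do not state whether lesions were dissected out or how many eyes went into a library, so lesion and surrounding tissue cannot be told apart.

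Collagen IV and laminin are the network-forming proteins of basement membranes. Collagen IV chains assemble as trimers, and the broadly used trimer holds the alpha1 and alpha2 chains, while the alpha3, alpha4 and alpha5 chains assemble with each other and replace it in some epithelial basement membranes, as in the kidney glomerulus. Laminins are trimers of an alpha, a beta and a gamma chain. Bruch's membrane, which lies between the RPE and the choroidal capillaries, has a basement membrane on each face, one laid down by the RPE and the other by the endothelium.

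Total counts on genes lay between 13667310 and 24356023 per library, and the 10 genes had between 226 and 7862 counts in any library. RPE identity was checked with 12 marker genes, all of which were measured. Rpe65, the isomerase of the visual cycle, was at 4687, 4437 and 3511 CPM in controls 1, 2 and 3 and at 3454, 2883 and 2524 CPM in SRF 1, 2 and 3. CPM values here are counts relative to the library total after TMM scaling. Control 1 and SRF 3 stood apart from the other 4 libraries because they held far more photoreceptor RNA. The mean level of 14 photoreceptor genes was 8.26 and 8.27 log2 CPM in these libraries and between 4.26 and 5.58 in the others. Differences are therefore given below over all libraries, within this photoreceptor-rich pair, and among the other 4 libraries. In bulk RNA, fewer cells of a type and less RNA per cell cannot be told apart.

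Across the 10 genes, the alpha1 and alpha2 chains of collagen IV were higher on average in SRF, the alpha3, alpha4 and alpha5 chains were lower on average, and the 5 laminins were higher or level. The largest difference with the least spread was that of Col4a3, which was lower in every SRF library than in any control. None of the 10 was called by edgeR, where a call needed a Benjamini-Hochberg adjusted p under 0.05 among the 13454 genes tested together with an absolute log2 fold change of 0.5 or more, and 0% of all genes were called. DESeq2 called 1 of the 10, Col4a3, against 1.14% of all genes. At an unadjusted p under 0.05 in edgeR, 2 of the 10 were reached, Col4a3 and Lamb2, against 7.01% of all genes. The groups did not overlap in 4 of the 10, Col4a3 on the lower side and Lama4, Lamb2 and Lamc1 on the higher side, against 13.1% of all genes (6.43% on the lower and 6.71% on the higher side). The study had itself picked Col4a3 as changed on these same counts, so its call is not independent of that choice. The median log2 fold change of the 10 was 0.17, beside 0.0012 over all genes tested. The median standard error over all genes was 0.19, so differences of the size seen in most of these chains were not resolved with 3 mice against 3.

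**Figure D1:**
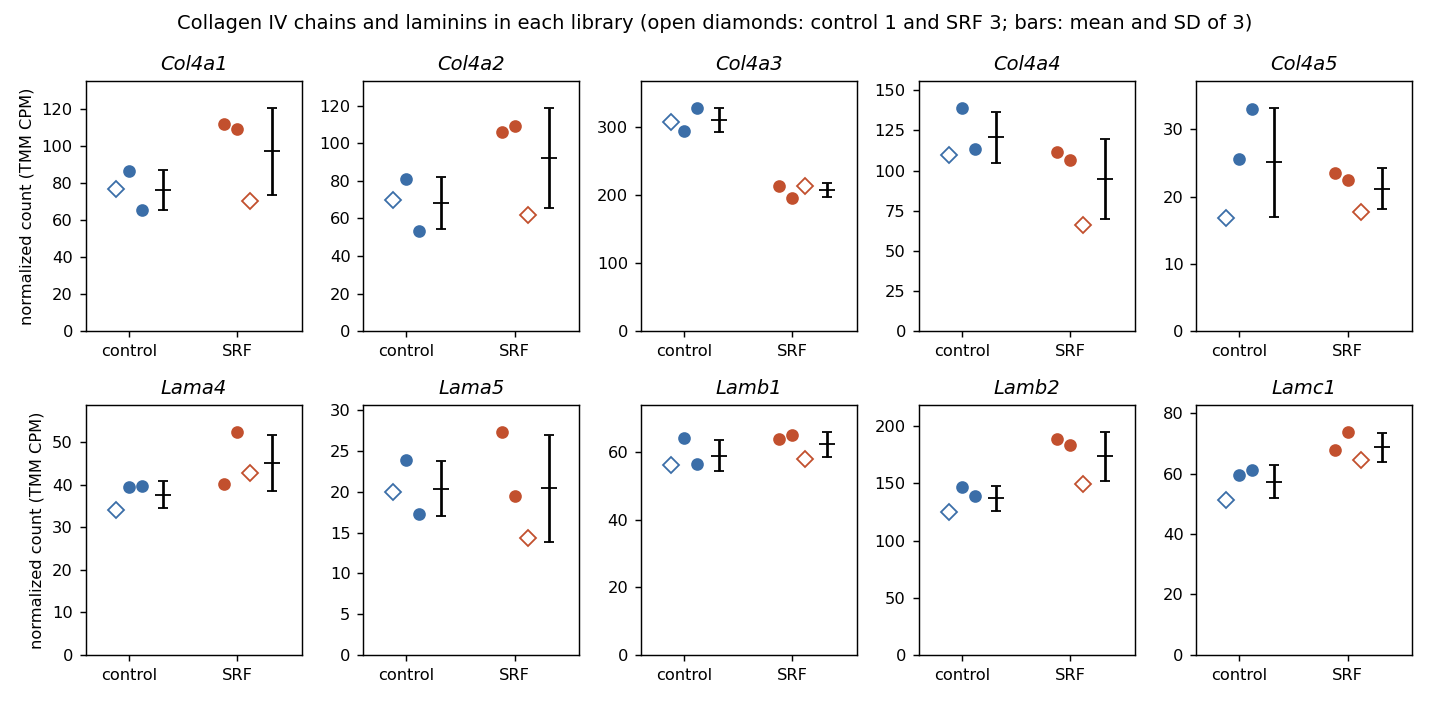
Normalized counts (TMM CPM, linear axis from 0) of the 10 genes in each of 3 control and 3 SRF libraries. Points are libraries, open diamonds mark the photoreceptor-rich control 1 and SRF 3, and bars give the mean and SD of 3 libraries. Col4a3 separates the groups, whereas for Col4a1 and Col4a2 the SRF 3 library lies among the controls.

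The genes of the alpha1 and alpha2 chains lie head to head on chromosome 8. In GENCODE M21 on GRCm38, Col4a1 (ENSMUSG00000031502) runs from 11198423 to 11312826 on the reverse strand and Col4a2 (ENSMUSG00000031503) from 11312805 to 11449287 on the forward strand. Their first exons overlap by 22 bases, shown in capitals within the 30 bases at chr8:11312801-11312830 (forward strand, RefSeq promoter windows of GRCm38.p6), because the expression of these neighbours is compared next.
Col4a1/Col4a2 start sites: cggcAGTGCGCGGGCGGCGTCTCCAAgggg
How the counting treated strand is not given in the sources used here, so reads from the shared bases cannot be told apart. Promoter windows of the annotated starts were matched for 7 of the 10 genes, the others being Col4a3, Lama4 and Lamc1. The windows of Col4a1 and Col4a2, searched on both strands, each held the CCAAT box, as 37.4% of the 32851 promoters in the table did. Both held the GC box GGGCGG, found in 35.7% of all promoters. Both also held the CTC box CCCTCCCC, found in 10.8%. None of the 7 windows held the TATA box TATAAA, found in 13.6%. Since these windows cover some of the same bases, part of these matches are the same letters read from either gene.

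Col4a1 was at 76.4, 86.5 and 65.3 CPM in controls 1, 2 and 3 and at 111.8, 109.2 and 70.1 CPM in SRF 1, 2 and 3. Col4a2 was at 70.1, 81.1 and 53.5 CPM in the controls and at 105.9, 109.4 and 61.7 CPM in the SRF libraries. In both genes SRF 1 and SRF 2 exceeded every control, but SRF 3 fell inside the control range, so the groups overlapped. The mean of Col4a1 was 76.1 ± 10.6 CPM in controls and 97.0 ± 23.4 CPM in SRF (SD, n = 3), a log2 fold change of 0.35 with a 95% interval from -0.14 to 0.84. For Col4a2 the means were 68.2 ± 13.9 and 92.3 ± 26.6 CPM (SD, n = 3), with a log2 fold change of 0.44 and an interval from -0.16 to 1.04. The Benjamini-Hochberg adjusted p-values in edgeR were 0.858 and 0.854. These intervals include 0 and also include increases of more than the 0.5 used as threshold.

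The difference in Col4a1 and Col4a2 was not the same in the photoreceptor-rich and the other libraries. Between SRF 3 and control 1 the log2 differences were -0.12 and -0.18. Between the means of SRF 1 and 2 and of controls 2 and 3 they were 0.56 and 0.71. With each library left out in turn, the fitted log2 fold change ran from 0.24 (without SRF 1) to 0.54 (without SRF 3) for Col4a1 and from 0.29 (without control 3) to 0.66 (without SRF 3) for Col4a2. The values without SRF 3 did not pass either (edgeR, Benjamini-Hochberg adjusted p = 0.284 and 0.296). With both photoreceptor-rich libraries left out they were 0.54 and 0.68, with edgeR Benjamini-Hochberg adjusted p-values of 0.141 and 0.129. The levels of these neighbours were close to each other in counts. The difference Col4a1 minus Col4a2 stayed between -0.0022 and 0.29 log2 CPM over the 6 libraries, and its mean was 0.17 ± 0.10 in controls and 0.087 ± 0.094 in SRF (SD, n = 3).

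Cells that lay down alpha1 and alpha2 chains include endothelial and mural cells, and their marker levels were set beside these values. The mean of 13 endothelial genes was 7.01 ± 0.13 log2 CPM in controls and 6.996 ± 0.17 in SRF (SD, n = 3), with a median log2 fold change of 0.0083, and Pecam1, an adhesion receptor of endothelium, was at 79.4 ± 14.4 and 81.4 ± 13.6 CPM. By library the endothelial mean was 6.92, 7.16 and 6.95 log2 CPM in controls 1, 2 and 3. It was 7.15, 7.03 and 6.81 in SRF 1, 2 and 3. The mean of 9 mural cell genes was at 6.56, 6.86 and 6.69 log2 CPM in controls 1, 2 and 3 and at 6.999, 7.02 and 6.39 in SRF 1, 2 and 3. Both means were lowest of the SRF libraries in SRF 3, as in Col4a1. Of the 9 mural cell genes, 5 had a positive and 4 a negative log2 fold change, with a median of 0.073, and Pdgfrb, the growth factor receptor of pericytes, was the one with an unadjusted p under 0.05 in edgeR. Pdgfrb was at 104.8, 120.9 and 103.2 CPM in controls and at 159.9, 167.6 and 114.6 CPM in SRF. The summed level of 6 skeletal muscle genes was also highest in SRF 1 and SRF 2, at 2109 and 1756 CPM, and lowest in SRF 3, at 603 CPM, with 883 to 1492 CPM in controls. The part of these cells in the Col4a1 and Col4a2 values was not tested. Minus the mural mean of the same library, the mean of Col4a1 and Col4a2 was between -0.81 and -0.37 log2 CPM in controls. In SRF it was between -0.35 and -0.23. The groups did not overlap on that scale, but only by a narrow margin, with control 1 at -0.368 and SRF 3 at -0.349. Minus the endothelial mean, the mean of Col4a1 and Col4a2 was -0.73, -0.77 and -1.06 in controls 1, 2 and 3. It was -0.39, -0.26 and -0.77 in SRF 1, 2 and 3, where SRF 3 lay inside the control range.

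Col4a3 and Col4a4 form the second head-to-head pair, on chromosome 1. Col4a4 (ENSMUSG00000067158) runs from 82448423 to 82586849 on the reverse strand and Col4a3 (ENSMUSG00000079465) from 82586921 to 82722059 on the forward strand. The gap of 71 bases between their annotated starts is shown because the neighbours behaved less alike than Col4a1 and Col4a2. It lies at chr1:82586850-82586920 (forward strand, RefSeq promoter window of Col4a4 on GRCm38.p6) and held none of the 4 motifs, so no letter is in capitals.
Col4a4/Col4a3 gap: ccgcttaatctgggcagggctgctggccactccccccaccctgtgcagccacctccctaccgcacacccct

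Col4a3, which carries the antigen of anti-basement-membrane disease in kidney and lung, was at 307.7, 293.7 and 328.0 CPM in controls 1, 2 and 3 and at 213.6, 195.8 and 213.5 CPM in SRF 1, 2 and 3. Every SRF library was below every control, with a gap between the groups wider than the full range within either. The means were 309.8 ± 17.2 and 207.6 ± 10.3 CPM (SD, n = 3). The log2 fold change was -0.58 with a 95% interval from -0.83 to -0.33, and the Benjamini-Hochberg adjusted p-value was 0.244 with edgeR but 0.00012 with DESeq2. By unadjusted p Col4a3 was gene 53 of 13454. An exact two-sided permutation test of the 3 SRF against the 3 control values gave p = 0.1, the smallest that this design allows. Any gene whose groups do not overlap gets that value, as Lama4, Lamb2 and Lamc1 did, so it adds nothing to the lack of overlap. The difference was -0.53 within the photoreceptor-rich pair and -0.60 among the other 4 libraries, and it stayed between -0.61 and -0.53 with each library left out in turn. With both photoreceptor-rich libraries left out the edgeR Benjamini-Hochberg adjusted p was 0.0746. It was the member with the narrowest interval.

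Col4a4 was at 109.7, 139.0 and 113.1 CPM in controls 1, 2 and 3 and at 111.3, 106.2 and 66.2 CPM in SRF 1, 2 and 3. SRF 1 lay above control 1, and the low mean of the SRF group was set largely by SRF 3. The log2 fold change was -0.35 with a 95% interval from -0.86 to 0.16 (edgeR, Benjamini-Hochberg adjusted p = 0.869), and it was -0.15 with SRF 3 left out. Within the photoreceptor-rich pair the log2 difference of Col4a4 was -0.73 and among the other libraries -0.20, so that, as for Col4a1 and Col4a2, the photoreceptor-rich pair gave the lower value. Col4a3 minus Col4a4 was between 1.08 and 1.54 log2 CPM in controls and between 0.88 and 1.69 in SRF, a wider range than between Col4a1 and Col4a2.

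Col4a5 (ENSMUSG00000031274, chromosome X, 141475385 to 141689234) encodes the chain mutated in X-linked Alport syndrome, which joins alpha3 and alpha4. It had the lowest counts of the 5 collagen chains described here, from 226 in control 1 to 790 in control 3, and was at 16.8, 25.5 and 33.0 CPM in controls and at 23.5, 22.4 and 17.6 CPM in SRF. The controls spanned the whole SRF range. The log2 fold change was -0.25 with a 95% interval from -0.85 to 0.35, and it was -0.00036 with control 3 left out, so the direction of the mean rested on control 3. Its Benjamini-Hochberg adjusted p in edgeR was 0.971.

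**Figure D2:**
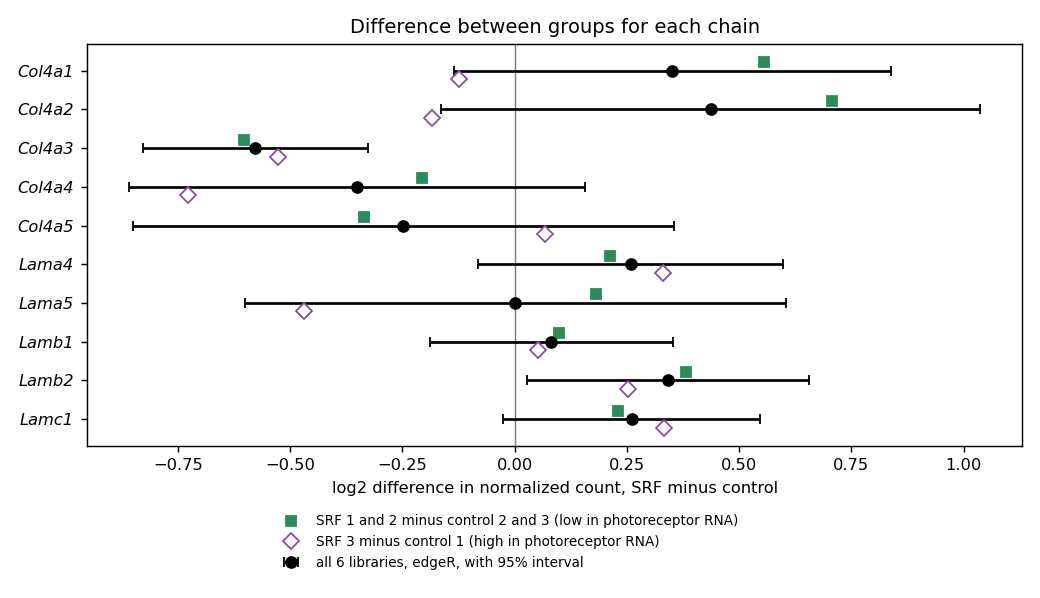
Log2 differences in normalized count, SRF minus control, for the 10 genes. Black points and bars are edgeR estimates over 6 libraries with 95% intervals, squares compare SRF 1 and 2 with controls 2 and 3, and open diamonds compare SRF 3 with control 1. The estimates of Col4a3 lie close to each other, at -0.60 and -0.53, whereas those of Col4a1 lie on either side of 0, at 0.56 and -0.12.

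The RPE lies on 1 side of Bruch's membrane, and its marker genes were lower in SRF as well. Of the 12 RPE genes, 11 had lower means in SRF. The other was Best1, at low means of 3.48 CPM in controls and 4.35 CPM in SRF (log2 fold change 0.32). The groups did not overlap on the lower side in 7 of the 12, against 6.43% of all genes tested. An unadjusted p under 0.05 in edgeR on the lower side was reached by 6, against 2.85% of all genes tested. The summed level of the 12 genes was 47631 to 55518 CPM in controls and 31801 to 41309 CPM in SRF. Their median log2 fold change was -0.43, beside -0.58 for Col4a3. Rpe65 had a log2 fold change of -0.51. Col4a3 minus the mean of the RPE genes in the same library was -2.03, -2.13 and -1.85 log2 units in controls 1, 2 and 3 and -2.28, -2.17 and -2.004 in SRF 1, 2 and 3, and on this scale the groups overlapped. The part of the RPE level in the Col4a3 difference was not tested further. Of these RPE genes, Rgr, Lrat and Rrh had been picked as changed by the study on the same libraries, so their direction is not independent of that choice.

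The make-up of the collagen IV counts differed between the groups. Col4a1 and Col4a2 together took 24.9%, 26.0% and 19.5% of the counts on all 6 collagen IV genes in controls 1, 2 and 3. In SRF 1, 2 and 3 they took 37.6%, 39.1% and 29.9%. The groups did not overlap, and the exact binomial 95% interval of each library, which covers counting error only, was at most about 1 percentage point to either side (25.2% to 26.8% in control 2, 28.9% to 31.0% in SRF 3). The mean share was 23.5% ± 3.52 in controls and 35.5% ± 4.90 in SRF (SD, n = 3), a difference of 12.1 percentage points. It was 5.02 points within the photoreceptor-rich pair and 15.6 points among the other 4 libraries, in the same direction in both. Within that pair the share was higher in SRF 3 although Col4a1 and Col4a2 were not, at log2 differences of -0.12 and -0.18. Col4a3 and Col4a4 were lower still, at -0.53 and -0.73, and Col4a5 was at 0.068. Col4a3 alone took 45.6% to 53.7% of the collagen IV counts in controls. It took 48.5% in SRF 3, inside the control range, and 36.9% or less in SRF 1 and SRF 2. Col4a6, the remaining chain, took between 1.19% and 2.94% in any library. Counts are not scaled to gene length, so the shares were also taken on the deposited FPKM values, which are. Col4a1 with Col4a2 then took 33.5%, 36.1% and 29.1% in controls 1, 2 and 3. In SRF 1, 2 and 3 they took 49.9%, 50.4% and 43.1%. On FPKM Col4a3 took 38.7% to 46.0% in controls and 29.1%, 28.0% and 38.3% in SRF. There SRF 3 was narrowly below every control, so the overlap for Col4a3 depended on the scale. Since the members were chosen with earlier results known, no test is given for these shares.

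**Figure D3:**
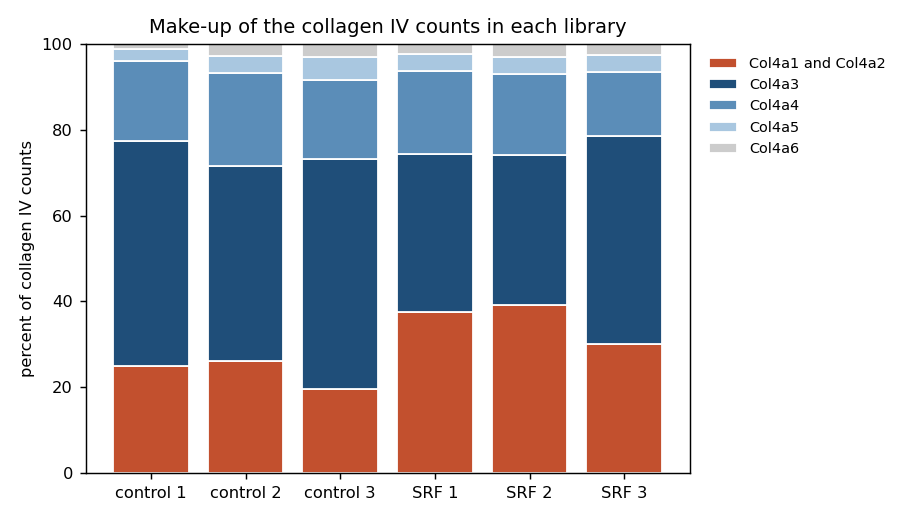
Percent of all collagen IV counts (stacked bars from 0 to 100) taken by each chain in each of the 6 libraries. The lowest segment, Col4a1 with Col4a2, ranges from 19.5% to 26.0% in controls and from 29.9% to 39.1% in SRF libraries.

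The same contrast was taken as a difference of mean log2 CPM within each library, in which the scaling of the library cancels. The mean of Col4a1 and Col4a2 minus the mean of Col4a3, Col4a4 and Col4a5 was -0.18, -0.28 and -0.86 in controls 1, 2 and 3 and 0.40, 0.49 and 0.063 in SRF 1, 2 and 3. The groups did not overlap, with a difference of 0.76 between the group means. It was 0.24 within the photoreceptor-rich pair and 1.013 among the other libraries. The sign of these values does not tell which chains were more abundant, since they are not scaled to length. On FPKM, which is scaled to length, Col4a3, Col4a4 and Col4a5 took 47.8%, 46.6% and 54.4% of collagen IV in SRF 1, 2 and 3. Col4a1 with Col4a2 took 49.9%, 50.4% and 43.1% there.

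Set against the laminins, the alpha3, alpha4 and alpha5 chains gave the tighter contrast. Their mean minus that of the 5 laminins was 0.80, 0.87 and 1.08 log2 units in controls and 0.41, 0.33 and 0.30 in SRF, a difference of -0.57 against a spread of 0.15 in controls and 0.058 in SRF (SD, n = 3). Within the photoreceptor-rich pair it was -0.50 and among the other libraries -0.60. The mean of Col4a1 and Col4a2 minus that of the laminins was 0.62, 0.59 and 0.23 in controls and 0.82, 0.82 and 0.37 in SRF. These ranges overlapped, the difference of 0.19 was within the spread of the libraries, and its direction differed between the photoreceptor-rich pair (-0.25) and the other libraries (0.41). A distinction of Col4a1 and Col4a2 from the laminins was thus not detectable over all 6 libraries.

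**Figure D4:**
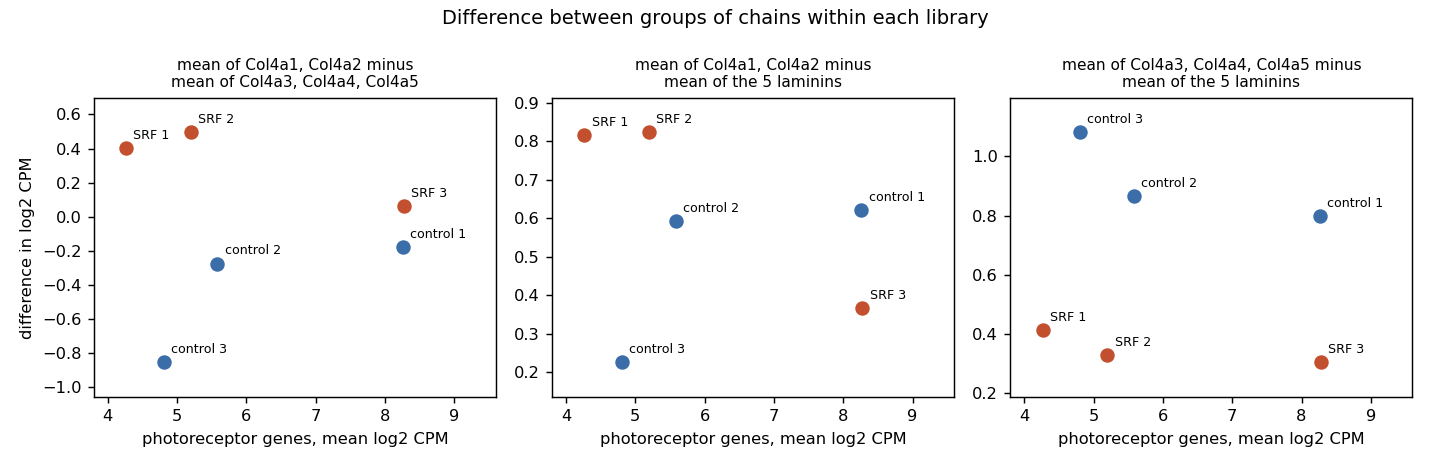
Differences in mean log2 CPM between groups of chains (vertical axes) in each library against the mean log2 CPM of 14 photoreceptor genes (horizontal axes). Controls are blue and SRF libraries red. In the left and right panels the groups separate at either photoreceptor level (for example 0.30 to 0.41 in SRF against 0.80 to 1.08 in controls on the right), and in the middle panel they overlap.

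Of the laminin beta chains, Lamb2 encodes the beta2 chain found in vascular, retinal and synaptic basement membranes. Lamb2 (ENSMUSG00000052911, chromosome 9, 108479736 to 108490530) was at 125.4, 146.8 and 139.3 CPM in controls 1, 2 and 3 and at 189.0, 183.5 and 149.3 CPM in SRF 1, 2 and 3. The groups did not overlap, although SRF 3 exceeded control 2 by only a narrow margin. The means were 137.1 ± 10.9 and 173.9 ± 21.5 CPM (SD, n = 3), with a log2 fold change of 0.34, a 95% interval from 0.029 to 0.66 and an edgeR Benjamini-Hochberg adjusted p of 0.657. The difference was 0.25 within the photoreceptor-rich pair and 0.38 among the other libraries. Lamb1 (ENSMUSG00000002900, chromosome 12, 31265234 to 31329644), which encodes the beta1 chain of most laminins, was at 56.0, 64.1 and 56.4 CPM in controls and at 63.9, 64.9 and 58.0 CPM in SRF. Its log2 fold change was 0.082, with a 95% interval from -0.19 to 0.35 that leaves room for a change of up to about that size. Lamb2 minus Lamb1 was 1.16, 1.19 and 1.30 log2 CPM in controls and 1.56, 1.499 and 1.36 in SRF, without overlap of the groups. Lamb2 alone was already without overlap, and the share of other gene pairs without overlap was not computed.

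Lamc1 (ENSMUSG00000026478, chromosome 1, 153218922 to 153332786) encodes the gamma1 chain, which is part of most laminin trimers. It was at 51.1, 59.6 and 61.2 CPM in controls and at 67.8, 73.9 and 64.4 CPM in SRF, again without overlap. On FPKM the groups did overlap, since SRF 3, at 10.6, lay below controls 2 and 3, at 11.58 and 11.59. The log2 fold change was 0.26 with a 95% interval from -0.025 to 0.55 (edgeR, Benjamini-Hochberg adjusted p = 0.763). It was 0.33 within the photoreceptor-rich pair and 0.23 among the other libraries.

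The alpha chains of laminin differ in their tissue. Lama4 (ENSMUSG00000019846, chromosome 10, 38965515 to 39110188) encodes the alpha4 chain of endothelial and other mesenchymal basement membranes. It was at 33.9, 39.4 and 39.7 CPM in controls and at 40.1, 52.5 and 42.7 CPM in SRF. The groups touched without overlap, since SRF 1 was barely above control 3. The log2 fold change was 0.26 with a 95% interval from -0.081 to 0.60, and 0.14 with SRF 2 left out. Lama5 (ENSMUSG00000015647, chromosome 2, 180176373 to 180225859) encodes the alpha5 chain of epithelial and vascular basement membranes. It was at 19.95, 24.0 and 17.3 CPM in controls and at 27.4, 19.5 and 14.4 CPM in SRF. The SRF libraries spread beyond the controls on either side. Its log2 fold change of 0.0020 had a 95% interval from -0.60 to 0.60, so a sizeable change in either direction cannot be told from none at this depth and number of mice.

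Levels of different genes can be compared only per length, for which the deposited FPKM values were used. In controls the order of mean FPKM was Col4a3 at 35.5 ± 2.12, Lamb2 at 25.7 ± 0.446, Col4a1 at 16.7 ± 2.06 and Col4a4 at 11.7 ± 1.503 (SD, n = 3), followed by Lamc1, Col4a2 and Lamb1 between 10.8 and 9.97, Lama4 at 6.11, Col4a5 at 5.85 and Lama5 at 1.76. The control ranges of Col4a4, Lamc1, Col4a2 and Lamb1 overlapped, although Col4a4 was above Lamb1 in each control, and those of Lama4 and Col4a5 overlapped too. In SRF Lamb2 came first at 32.9 ± 3.18 and Col4a3 and Col4a1 followed at 24.6 ± 1.03 and 23.4 ± 4.17, with overlapping ranges. Col4a2 at 14.5 and Lamc1 at 13.9 were next, and Lama5 was again last at 1.82. The first places thus changed hands. Col4a3 was above Lamb2 in each control (33.5 to 37.7 against 25.2 to 26.0 FPKM) and below it in each SRF library (23.4 to 25.3 against 29.3 to 34.9 FPKM). For Col4a3, Col4a4, Lama4, Lamb1, Col4a2 and Lama5 the FPKM followed the deposited counts to within 1.006 times, but for Lamb2, Col4a5, Col4a1 and Lamc1 the FPKM per count varied between libraries by 1.13, 1.20, 1.32 and 1.36 times, and the FPKM of these 4 genes carry that extra variation.

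Other genes of basement membranes were read from lists, each with its counts beside the 4.16% of all genes that were higher and the 2.85% that were lower at an unadjusted p under 0.05 in edgeR. None of the genes in these lists was called by edgeR or by DESeq2. Of the 7 other collagen IV and laminin chains, 6 were tested and none reached that p. Lama1 had too few counts. The largest difference was that of Lamb3, a laminin beta chain of epithelia, with a log2 fold change of -0.95 (standard error 0.63). Of the 13 linkers and proteoglycans, 7 were positive and 6 negative, with a median of 0.072, and 1 reached the p, on the higher side. This was Smoc1, a calcium-binding glycoprotein of basement membranes, at 83.9, 90.1 and 81.2 CPM in controls and at 135.2, 137.2 and 95.9 CPM in SRF, for a log2 fold change of 0.53 (standard error 0.16, edgeR, Benjamini-Hochberg adjusted p = 0.471). As for Col4a1, SRF 3 was the lowest SRF library, but here it stayed above every control.

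The proteins that join the collagen IV and laminin networks are given here too, named after their values had been seen. Nid1, encoding nidogen-1, was at 83.1 CPM on average in either group, for a log2 fold change of -0.00027 (standard error 0.14). Hspg2, encoding the proteoglycan perlecan, was at 25.7, 30.5 and 23.3 CPM in controls and at 43.2, 43.0 and 25.9 CPM in SRF, with SRF 3 again inside the control range.

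Of the 10 genes for assembly and cross-linking of collagen IV, 9 were positive with a median log2 fold change of 0.17, and none reached an unadjusted p under 0.05. Serpinh1, the collagen chaperone of the endoplasmic reticulum, had the largest, at 0.33 (standard error 0.16), and Loxl2, a cross-linking lysyl oxidase, followed at 0.27 (0.21). Of the 10 receptors of collagen IV and laminin, 7 were positive with a median of 0.12, and none reached that p. Itga2, a collagen-binding integrin chain, was at 5.54 ± 0.914 CPM in controls and 8.10 ± 0.954 CPM in SRF (SD, n = 3) without overlap, and Itgb4, the integrin chain of hemidesmosomes, had a log2 fold change of 0.34 (standard error 0.24). Fibroblast markers had a positive log2 fold change in 6 of 6 genes, of which 1, Col3a1, had an unadjusted p under 0.05 in edgeR, with a median of 0.54 and summed levels of 4315 to 10072 CPM in controls and 6626 to 11036 CPM in SRF. Macrophage markers had a positive log2 fold change in 7 of 8 genes, with a median of 0.61. Of these, 4 had an unadjusted p under 0.05 in edgeR, against 4.16% of all genes on the higher side. Their summed levels were 1079 to 1425 CPM in controls and 2608 to 3912 CPM in SRF. Most of that sum was Lyz2, at means of 915 and 2574 CPM, whereas Csf1r and Itgam had log2 fold changes of -0.027 and 0.032. The part of fibroblasts and macrophages in the values of the basement membrane genes was not tested.

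**Figure D5:**
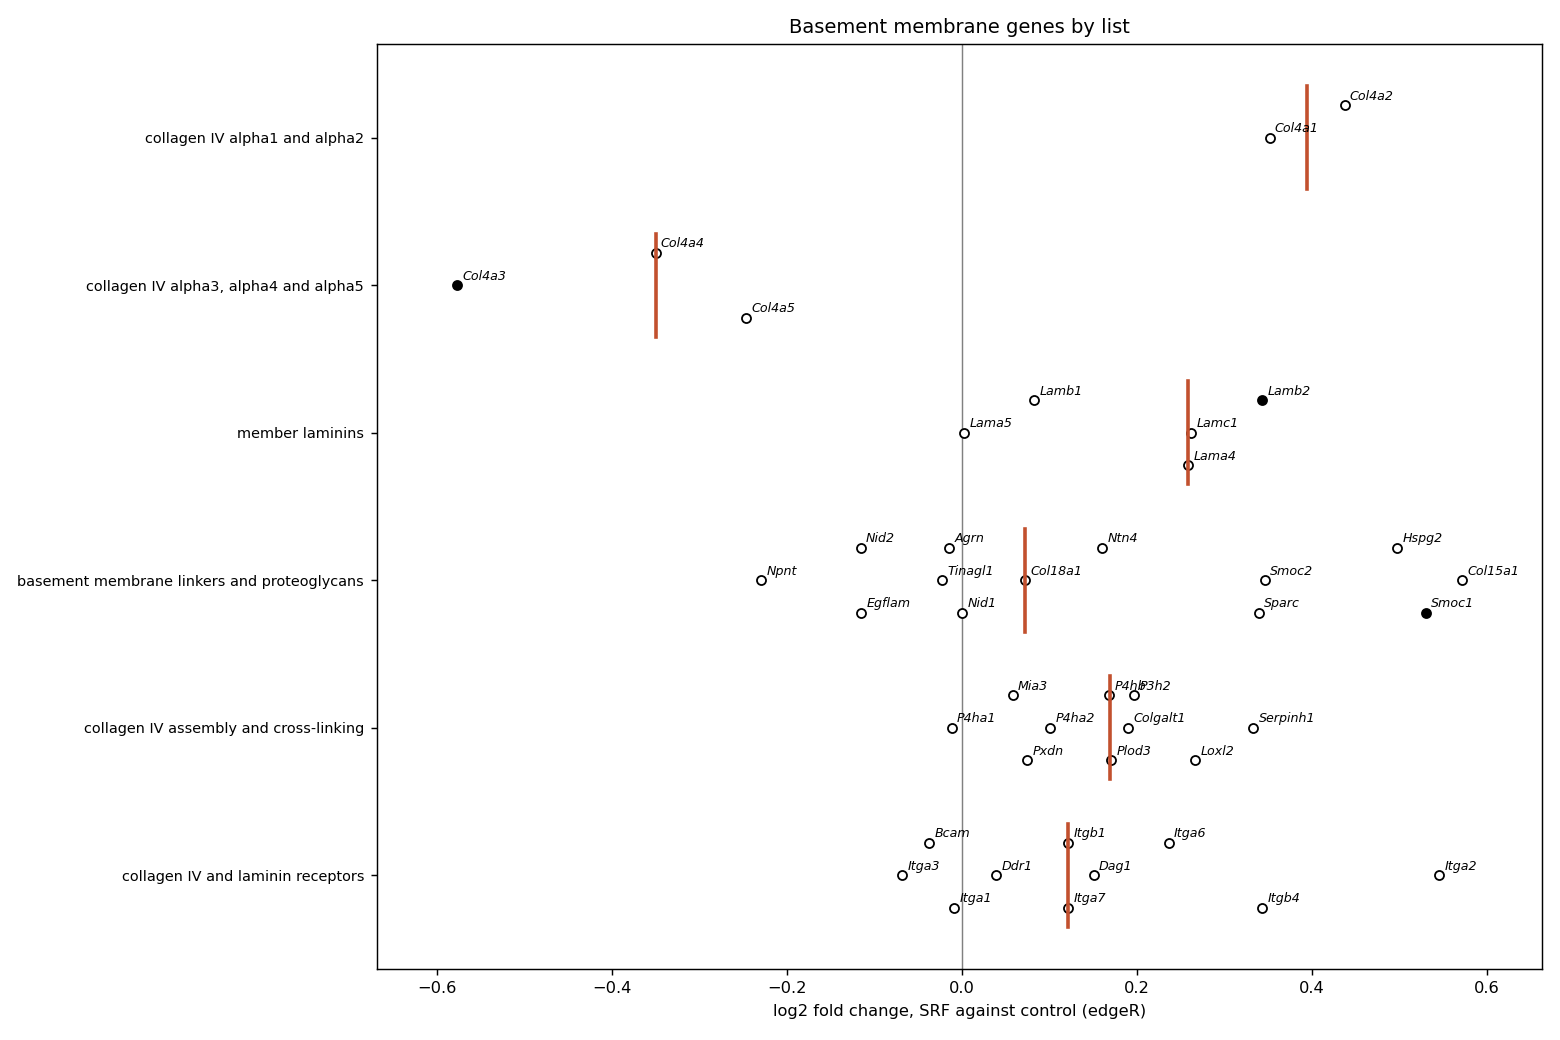
Log2 fold changes (SRF against control, edgeR) of the tested genes in 6 lists of basement membrane genes. Filled points have an unadjusted p under 0.05 and red bars are list medians. Only Col4a3, Lamb2 and Smoc1 are filled, and the bar of the alpha3, alpha4 and alpha5 chains, at -0.35, is the one farthest to the left.

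The genes most like Col4a3 and Col4a1 over the 6 libraries were found by the root mean square difference of log2 CPM, each gene centred on its own mean. Nearest to Col4a3 were Itgb8, an integrin chain, Tspan3, a tetraspanin, and Plbd1, a phospholipase-like protein, with differences of 0.038, 0.060 and 0.066 log2 units. Itgb8 was at 825.6, 831.3 and 875.5 CPM in controls and at 604.0, 551.0 and 607.7 CPM in SRF. Nearest to Col4a1 were Pabpc4, a poly(A)-binding protein, Lyl1, a transcription factor of blood and endothelial cells, and Wdfy4, with differences of 0.023, 0.044 and 0.046. Col4a2 was the 53rd nearest to Col4a1, with a difference of 0.090, and Lamb2 was the nearest of the laminins, at 0.16. Col4a4 and Col4a5 were farther from Col4a3, at 0.31 and 0.36. These values rest on 6 libraries and are a description.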

How the data were processed

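RPE-choroid RNA from 3 control and 3 SRF mice was sequenced, 1 library per mouse, with group and number taken from the labels. The authors filtered reads with FASTP, counted reads per gene with StringTie and deposited raw counts. The deposited FPKM values are scaled by the authors to transcript length and mapped reads. Aligner, genome build and strand setting are not given in the sources used here. Of 15663 identifiers, 15659 were found in GENCODE M21 (GRCm38), which supplied symbols and positions. The tables list only genes with at least 1 count in every library, and no 2 libraries were identical.

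The filter of the study's methods, a count above 50 in 2 or more libraries, left 13454 genes for testing, and a call needed an adjusted p under 0.05 and an absolute log2 fold change of at least 0.5. The test was edgeR 4.0.16 in R 4.3.3 (TMM, estimateDisp, glmQLFit and glmQLFTest at their defaults, group as the only term, Benjamini-Hochberg adjustment). The 95% intervals use the standard error and degrees of freedom of that fit. TMM factors lay between 0.978 and 1.03. DESeq2 1.42.0 served as an alternative, as did limma 3.58.1 with voom weights, limma on log2 FPKM with 0.1 or 1 added, changed normalizations and filters, the newer form of the edgeR fit, a photoreceptor covariate, a replicate block and leaving out each library. Leaving out both photoreceptor-rich libraries, and the alternatives for the collagen IV share, were chosen after seeing the data. The fits were first tested on simulated counts.

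The genes, lists and tests were chosen with earlier results of these data known. Named genes were the 10 members, in each further list those with an unadjusted p under 0.05 or else the 2 with the largest change, the 3 nearest to Col4a1 and to Col4a3, and 4 markers, and 1 gene that this rule names is not reported here. Other genes given with values or counts (Nid1, Hspg2, Egflam, Col4a6, Best1, Col3a1, Lyz2, Csf1r, Itgam) were chosen after their values were seen. p-values measure the spread among 3 mice a group.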

Additional observations from a re-analysis of the deposited data

How the results depend on the processing

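Of the 10 genes, 9 kept their direction in all 19 alternatives. The exception was Lama5, whose main log2 fold change was 0.0020. It was -0.0024 with DESeq2, -0.022 with limma on counts, -0.0025 with RLE factors, -0.0018 without a filter, -0.00023 with filterByExpr, -0.073 with the photoreceptor covariate and -0.037 with the replicate block, and from -0.27 to 0.20 with a library left out. Against 0 genes called in edgeR (943 at an unadjusted p under 0.05), DESeq2 called 153, limma on counts 1, limma on either FPKM scale 2, and edgeR in its newer form, with upper-quartile factors, with library totals only, without a filter, with filterByExpr or with the photoreceptor covariate 1 each. With a library left out edgeR called 0 to 5. Without both photoreceptor-rich libraries it called 154, none of them a member, and the groups did not overlap in 8 of the 10 members, beside 6681 of all 13454 genes. That count of members was 4 over all libraries, beside 1768 of all 13454 genes. It was 3 on FPKM and with RLE factors, beside 1711 and 1764 genes. With a library left out it was 4 to 6, beside 2231 to 4695 genes, so the count over all genes moved too. DESeq2 called 1 member, Col4a3, and no other alternative called any. The difference between the alpha3, alpha4 and alpha5 chains and the laminins was -0.76 on summed FPKM. The cause of these differences between settings was not tested. The difference in the collagen IV share was 14.9 percentage points on FPKM and between 10.0 and 14.8 with a library left out.

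Labels number the mice 1 to 3 in each group, but they are different animals, and the deviations of same-numbered libraries correlated at -0.48, 0.49 and -0.30 across genes, so the number was not taken as a pairing. With the replicate block edgeR called 0 genes, none a member, and the log2 fold change of Col4a3 was -0.58 (adjusted p = 0.345 from edgeR with Benjamini-Hochberg adjustment). Control 1 correlated best with SRF 3 and control 2 with SRF 1, so not every library was nearest to its own number. With 3 mice a group, differences near the median standard error of 0.19 were not resolved.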

Other observations

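Some basement membrane genes outside the family were highest in the same libraries as markers of neighbouring tissues, and their part was not tested. Lamb3, a laminin beta chain of epithelia, was highest in control 3, at 6.17 CPM, and lowest in control 1, at 1.04 CPM. The summed level of 5 ocular surface epithelium genes, such as Krt5 and Krt14, was likewise highest in control 3, at 1942 CPM, and lowest in control 1, at 168 CPM, and the SRF libraries lay between, at 501 to 949 CPM. Egflam, encoding the photoreceptor synapse protein pikachurin, was at 52.7 and 45.2 CPM in the photoreceptor-rich control 1 and SRF 3 and between 10.3 and 18.7 CPM in the other libraries. The Mueller glia and astrocyte genes had summed levels of 433 to 893 CPM in controls and 327 to 845 CPM in SRF, the Schwann cell genes 746 to 944 and 779 to 1561 CPM, and the 4 lens genes measured 29.3 to 72.3 and 35.8 to 42.8 CPM. The lens genes Lim2 and Mip were not among the genes listed.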
